A study of Mus musculus with 6 samples.

Results

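Genes of the bile duct lining and of liver progenitor cells were followed in livers with and without hepatocyte ChREBP. They are Sox9, Sox4, Epcam, Spp1, Cd24a, Prom1, Cftr and Muc1. The list held these 8 symbols, and every probe set whose only annotated symbol was one of them was used. The list gave 20 of the 45101 probe sets on the array and 7 of the 18193 genes with a named probe set. Spp1, which encodes the secreted matrix protein osteopontin, is not analysed here.

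The data are Affymetrix array signals from the livers of 6 male mice, 3 wild type (WT) and 3 liver-specific ChREBP knockouts (ChLO), with 1 array per mouse. ChLO mice came from a cross of mice with a floxed Chrebp gene, now named Mlxipl, and mice with Cre recombinase under the albumin promoter, so the deletion was directed at hepatocytes. The labels give neither the strain nor the littermate status of the WT mice, nor whether they carried floxed alleles or Cre. All 6 mice were 12 weeks old at the start and all ate a diet of 60% sucrose for 1 week, so no group was off the sucrose diet. The samples of a group are labelled as biological replicates 1 to 3, and p-values measure the spread between these mice.

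In hepatocytes ChREBP is switched on by carbohydrate and activates genes of sugar breakdown and fat synthesis. The bile ducts are lined by cholangiocytes, epithelial cells that make up a small part of the liver and that express genes which hepatocytes keep low. When the liver is injured, a reaction of duct-like and progenitor-like cells can spread from the portal area, and hepatocytes themselves can switch on some of the same genes, Sox9 and Sox4 among them. Whole liver RNA holds hepatocytes, duct cells, stroma, vessels and blood cells together, so more cells of a type and more RNA per cell cannot be told apart.

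Signals are on the log2 scale, on which 1 unit is a doubling, and probe sets were tested when their mean over the 6 arrays reached the 40th percentile, a log2 signal of 5.50. Of the 20 probe sets, 9 passed this level and 11 did not. Sox9, Sox4, Epcam, Cd24a and Prom1 were tested, each on its brightest probe set, and Cftr and Muc1 were below the level. Signals of different probe sets cannot be compared with each other, since each has its own brightness.

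Hepatocyte transcripts were abundant, as the liver label implies. Alb, which encodes albumin, read between 15.31 and 15.85 on all 6 arrays. Mlxipl, the targeted gene, read 12.61, 12.56 and 12.59 in WT 1, 2 and 3 and 10.34, 11.22 and 11.48 in ChLO 1, 2 and 3. Pairs of arrays correlated at 0.894 to 0.954 over the 12598 genes tested. In many of the results below ChLO 3 lay away from ChLO 1 and ChLO 2, so results are also given without it. No label gives a reason to leave it out. It was set apart on these same values, so results without it are a description and no separate support.

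The stretch before the gene's start is shown for Sox4, Prom1 and Epcam, the tested genes of the list with a promoter in the RefSeq table (build GRCm38.p6), because the deleted factor binds DNA at paired E-boxes. The 250 bases before the start were searched on both strands for the E-box core CACGTG, the AP-1 motif TGANTCA, the TEAD motif GGAATG, the RBPJ motif TGGGAA of the Notch pathway, and the GC box GGGCGG. Matches stand in capitals, on either strand, and no motifs overlapped in these 3 sequences. The windows are chr13:28953700-28953949 on the minus strand for Sox4, chr5:44101737-44101986 on the minus strand for Prom1 and chr17:87635729-87635978 on the plus strand for Epcam. The table holds 2 starts for Prom1, and the window of the upstream one is printed.
Sox4: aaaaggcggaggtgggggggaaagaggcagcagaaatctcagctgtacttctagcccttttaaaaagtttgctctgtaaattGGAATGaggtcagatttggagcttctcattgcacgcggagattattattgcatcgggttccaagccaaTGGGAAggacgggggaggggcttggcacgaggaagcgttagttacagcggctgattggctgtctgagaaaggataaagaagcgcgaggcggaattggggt
Prom1: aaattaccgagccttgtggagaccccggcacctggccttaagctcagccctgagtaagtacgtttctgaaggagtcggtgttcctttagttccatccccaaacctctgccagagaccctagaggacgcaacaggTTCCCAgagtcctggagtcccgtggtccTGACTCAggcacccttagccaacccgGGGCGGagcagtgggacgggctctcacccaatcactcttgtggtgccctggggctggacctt
Epcam: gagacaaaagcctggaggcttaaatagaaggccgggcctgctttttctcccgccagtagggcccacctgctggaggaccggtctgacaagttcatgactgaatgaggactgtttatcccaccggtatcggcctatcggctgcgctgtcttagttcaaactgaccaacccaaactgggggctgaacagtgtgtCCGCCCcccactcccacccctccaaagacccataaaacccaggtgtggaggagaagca

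None of the 3 windows held the E-box core, and neither did the windows of Cftr and Muc1 or of the other Prom1 start. The search was for the exact core only, so paired E-boxes that depart from it and sites outside these windows would have been missed. Whether the deleted factor has a site at these genes was therefore not tested. The core was found in 6.02% of all 32851 promoter windows of that length. The Sox4 window held 1 TEAD match, which 12.6% of all windows had, and 1 RBPJ match, which 21.6% had. The printed Prom1 window held 1 AP-1 match, 88 bases before the start, against 6.75% of all windows, with 1 RBPJ match and 1 GC box. The window of the other Prom1 start, chr5:44094769-44095018, held 1 AP-1 match, 189 bases before that start, and none of the other motifs. The Epcam window held 1 GC box and none of the other motifs, and 32.7% of all windows held a GC box. These are matches of letters in a short window, and no binding was measured.

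Of the 5 genes tested, Sox4 and Cd24a had every ChLO array above every WT array. Sox9 and Prom1 were higher in ChLO 1 and ChLO 2 but lower than every WT array in ChLO 3, and Epcam gave different orders of arrays on its 2 probe sets. No gene of the list passed a limma adjusted p of 0.05 over all genes tested (0 of 5, where the share called over all 12598 genes was 0%). At an unadjusted p under 0.05 there were 2, Sox4 and Cd24a, both higher in ChLO, against 5.46% of all genes in that direction. The group means of all 5 were higher in ChLO, as were those of 56.5% of all genes, and the median difference was 0.89 against 0.06 over all genes tested. All 5 also had higher means under quantile normalization, equal array medians and scaling to the spike-in controls, which raised the median difference of all genes by 0.25. As probe sets, 0 of the 9 passed (limma adjusted p from 0.479 to 0.957, with 0.0296% of the 27022 probe sets called). Of the 9, 8 had a higher mean in ChLO against 53.6% of all, and 2 had an unadjusted p under 0.05 with a higher signal in ChLO, against 4.41% of all. Sox9, Sox4 and Cd24a each gave more than 1 of the 9, and Sox4 1419155_a_at had a WT mean of 4.99, under the filter level.

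**Figure D1:**
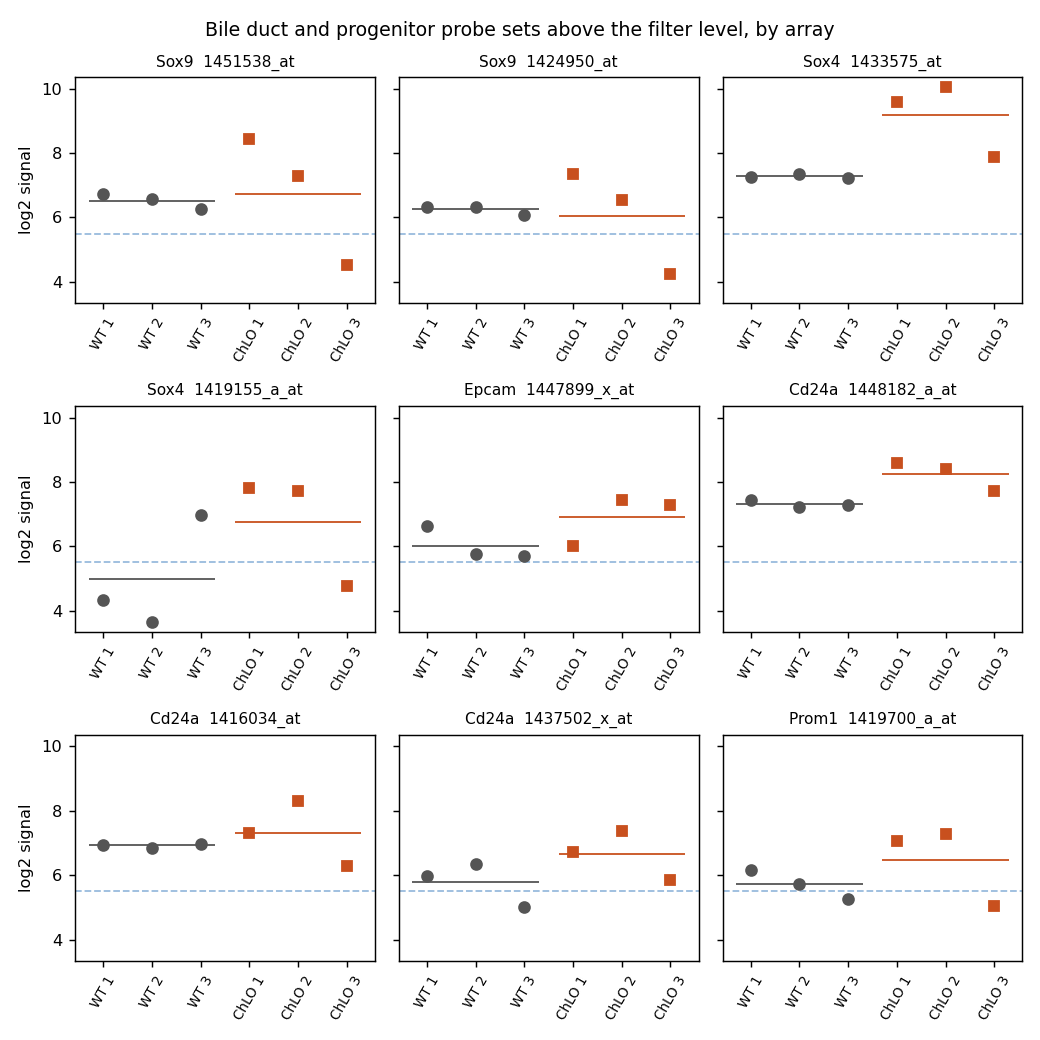
Log2 signal (vertical axis) of the 9 probe sets above the filter level on each of the 6 arrays (horizontal axis), with WT as grey circles, ChLO as orange squares, horizontal bars at the group means and a dashed line at the filter level of 5.50. Sox4 1433575_at and Cd24a 1448182_a_at are the 2 panels in which all ChLO arrays lie above all WT arrays, and in both Sox9 panels ChLO 3 is the lowest array.

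The transcription factors of the list come first. Sox4 and Sox9 belong to the SOX family, whose members bind DNA through an HMG box. Both act in the formation of the bile ducts in the embryo.

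Sox4 had the greatest difference of the 5 genes tested. On probe set 1433575_at it read 7.26, 7.35 and 7.22 in WT 1, 2 and 3 and 9.59, 10.04 and 7.89 in ChLO 1, 2 and 3. The WT arrays were nearly equal (7.28 ± 0.06, SD, n = 3), and the ChLO arrays were spread over more than 2.0 log2 units with none in the WT range (9.17 ± 1.13, SD, n = 3). The difference was 1.90 (SE 0.51, 95% interval 0.73 to 3.07), or 3.73-fold, with an unadjusted limma p of 0.00581 and an adjusted p of 0.410. Without ChLO 3 the difference was 2.54 (SE 0.24) and passed over all genes with a limma adjusted p of 0.0120. It was the only gene of the list to pass there (1 of 5, against 1.60% of all genes called higher without ChLO 3). With any other array left out, no gene of the list passed. Genes of other lists described below were also called higher without ChLO 3. They were 5 of 14 stellate cell and mesenchyme markers, 2 of 21 other bile duct genes and 2 of 10 progenitor and fetal liver genes. So were 2 of 16 macrophage markers, 1 of 11 osteopontin and CD24 receptors and 1 of 12 endothelial markers. The remaining lists had 0 called higher, and only the hepatocyte markers had a gene called lower, 1 of 15.

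Sox4 was covered by 8 probe sets, more than any other gene of the list. Probe set 1419155_a_at also passed the filter and read 4.32, 3.65 and 6.98 in WT against 7.80, 7.71 and 4.78 in ChLO. ChLO 1 and ChLO 2 were above every WT array there, but WT 3 was above ChLO 3, and the WT mean of 4.99 was under the filter level. The difference was 1.78 (SE 1.07, adjusted p = 0.687 over all probe sets, limma). Of the 6 dimmer probe sets, 4 had a higher mean in ChLO and 2 a lower one. Among them 1419156_at read 3.01, 4.0 and 3.53 in WT and 6.49, 6.96 and 3.89 in ChLO, and 1419157_at read 1.19, 2.91 and 5.77 against 6.65, 7.10 and 2.56. Both thus had ChLO 1 and ChLO 2 as their highest arrays, as 1433575_at and 1419155_a_at did. The dim 1458332_x_at ran the other way in these arrays, at 2.43 and 2.28 in ChLO 1 and ChLO 2 and 5.44 in ChLO 3, with 3.07, 2.94 and 6.41 in WT. Probe set 1449370_at read 4.92, 3.18 and 5.53 in WT and 6.09, 5.66 and 4.83 in ChLO. On 1455867_at ChLO 3 was the highest array, with 3.53, 5.87 and 5.21 in WT and 4.22, 6.07 and 6.33 in ChLO. The dimmest, 1443778_at, read 1.10, 3.76 and 3.07 in WT and 2.58, 1.93 and 1.56 in ChLO.

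Sox9, the factor most used to mark duct cells and progenitors, had nearly equal group means but unequal ChLO arrays. On 1451538_at it read 6.72, 6.56 and 6.27 in WT and 8.43, 7.28 and 4.52 in ChLO. ChLO 1 and ChLO 2 lay above every WT array and ChLO 3 lay below every WT array, so the means were 6.52 ± 0.23 and 6.74 ± 2.01 (SD, n = 3 each). The difference was 0.23 (SE 0.89, 95% interval -1.83 to 2.28, limma adjusted p = 0.948), an interval that leaves room for changes of over 2.0 log2 units up. The difference became 1.34 (SE 0.43) without ChLO 3, with an unadjusted p of 0.0143 and an adjusted p of 0.144, and turned negative at -0.62 without ChLO 1 and -0.04 without ChLO 2. Of all genes tested, 0.794% had an SD over the ChLO arrays as large as that of Sox9.

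A second Sox9 probe set gave the same order of the ChLO arrays. Probe set 1424950_at, which is annotated to the same transcript record, read 6.34, 6.34 and 6.09 in WT and 7.36, 6.53 and 4.25 in ChLO. Here too ChLO 1 and ChLO 2 were above and ChLO 3 below every WT array, and the difference was -0.21 (SE 0.75, limma adjusted p = 0.953 over all probe sets), or 0.040 with spike-in scaling and 0.69 without ChLO 3. The dim 1433889_at, with a mean of 3.31, read 5.73, 1.94 and 3.97 in WT and 0.01, 2.64 and 5.58 in ChLO.

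Of 13 other genes of the SOX family 10 were tested, 7 with higher and 3 with lower means in ChLO (9 and 1 with spike-in scaling), and 0 passed. The median difference was 0.24 against 0.06 over all genes. Of these 10, 1 had an unadjusted p under 0.05, higher in ChLO, against 5.46% of all genes in that direction. It was Sox17, a factor of endothelium and of the developing bile duct that was named after its values were seen. It read 7.35, 7.55 and 6.33 in WT and 8.13, 7.77 and 8.06 in ChLO, a difference of 0.91 (SE 0.37, limma adjusted p = 0.535).

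Cd24a, Prom1 and Epcam encode proteins of the cell surface that are used to sort duct and progenitor cells. Cd24a encodes a small, heavily glycosylated protein that is also carried by immature blood cells. Prom1 encodes prominin-1, or CD133, a protein of membrane protrusions, and Epcam an adhesion protein of epithelia.

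Cd24a had higher signals in all ChLO arrays on its brightest probe set. Probe set 1448182_a_at read 7.43, 7.23 and 7.30 in WT and 8.58, 8.40 and 7.72 in ChLO, with no overlap. Sox4 and Cd24a were thus 2 of 5 genes whose ChLO arrays all lay above WT, against 9.04% of all genes, and 2 of 9 probe sets against 7.64% of all probe sets. The difference was 0.91 (SE 0.29, 95% interval 0.24 to 1.59), or 1.88-fold, with an unadjusted limma p of 0.0140 and an adjusted p of 0.457. Without ChLO 3 it was 1.17 (SE 0.26, adjusted p = 0.0614).

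The other Cd24a probe sets had higher means in ChLO but overlapped. Probe set 1416034_at read 6.95, 6.86 and 6.97 in WT and 7.32, 8.30 and 6.28 in ChLO, so that ChLO 3 was the lowest of all arrays. Its difference was 0.37 (SE 0.48, limma adjusted p = 0.847), and it was -0.13 without ChLO 2. Probe set 1437502_x_at read 5.97, 6.36 and 5.01 in WT and 6.71, 7.37 and 5.86 in ChLO, a difference of 0.87 (SE 0.55, adjusted p = 0.692). ChLO 3 lay within the WT range there.

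Prom1, like Sox9, separated ChLO 3 from ChLO 1 and ChLO 2. Its 1 probe set, 1419700_a_at, read 6.17, 5.72 and 5.25 in WT and 7.08, 7.29 and 5.06 in ChLO. ChLO 1 and ChLO 2 were above and ChLO 3 below every WT array, with means of 5.71 ± 0.46 and 6.47 ± 1.23 (SD, n = 3 each). The difference was 0.76 (SE 0.66, 95% interval -0.77 to 2.29, limma adjusted p = 0.728), and 1.47 (SE 0.48, adjusted p = 0.150) without ChLO 3.

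Epcam was measured by 2 probe sets that ordered the ChLO arrays differently. Probe set 1447899_x_at, the brighter one, read 6.63, 5.75 and 5.69 in WT and 6.01, 7.45 and 7.30 in ChLO. ChLO 1 lay within the WT range and the other two ChLO arrays lay above it. The difference was 0.89 (SE 0.51, 95% interval -0.30 to 2.08, limma adjusted p = 0.630), and 0.70 without ChLO 3. Probe set 1416579_a_at lay just under the filter level, with a mean of 5.39, and read 5.75, 3.98 and 4.67 in WT and 6.73, 7.67 and 3.55 in ChLO. On it ChLO 1 and ChLO 2 were above and ChLO 3 below every WT array, as for Sox9 and Prom1. An _x_at ending marks a probe set whose probes can match other transcripts, and how much of the 1447899_x_at signal came from Epcam was not tested.

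**Figure D2:**
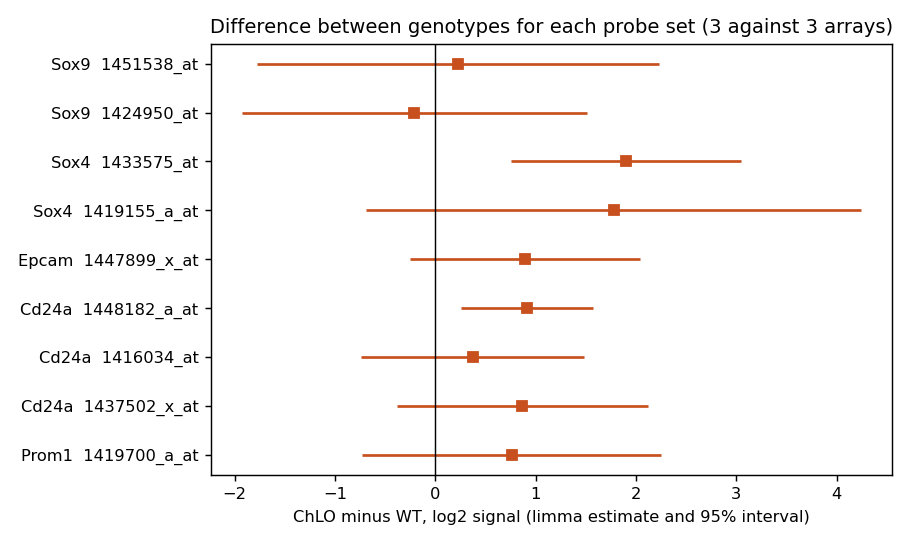
Difference between ChLO and WT in log2 signal (horizontal axis, squares) with its 95% interval from limma for the 9 probe sets above the filter level (vertical axis), from 3 arrays per group. The intervals of Sox4 1433575_at and Cd24a 1448182_a_at lie above 0 before adjustment over all probe sets, and that of Sox9 1451538_at is centred near 0 and runs from -1.78 to 2.23.

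The apical genes of duct cells were near the bottom of the array's range. Cftr encodes the chloride channel through which cholangiocytes drive secretion into bile, and Muc1 encodes a membrane mucin of apical surfaces. Cftr 1420579_s_at read -0.22, 3.96 and 2.16 in WT and 3.65, 4.30 and 4.69 in ChLO. Its second probe set, 1427767_a_at, read 3.61, 3.64 and -0.87 in WT and 3.41, 2.14 and 4.23 in ChLO. WT arrays alone differed by more than 4.0 units on each of these probe sets, and the 2 disagreed on which arrays were low. Muc1 read 3.10, 4.03 and 1.73 in WT and 2.51, 4.29 and 3.23 in ChLO, with both groups in one range. No value of Cftr or Muc1 reached the filter level of 5.50, and a difference between the groups was not detectable at these signals. When the filter was dropped, Cftr differed by 2.25 (SE 1.12, limma adjusted p = 0.664) and Muc1 by 0.39 (SE 0.93, adjusted p = 0.930).

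**Figure D3:**
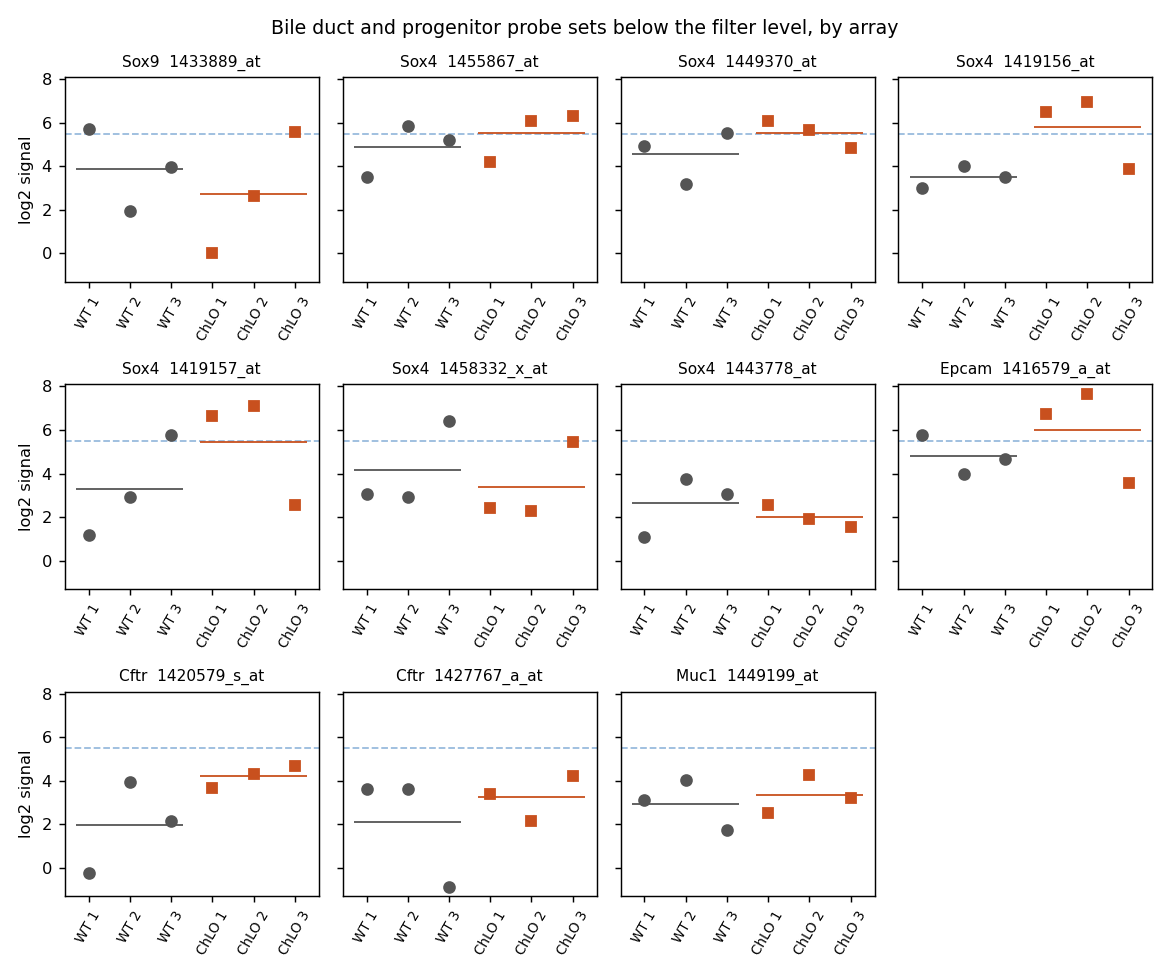
Log2 signal (vertical axis) of the 11 probe sets below the filter level on each array (horizontal axis), with WT as grey circles, ChLO as orange squares, horizontal bars at the group means and a dashed line at the filter level of 5.50. All Cftr and Muc1 values lie below the dashed line, and arrays of 1 group differ by several log2 units on most panels.

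The spread between ChLO livers was greater than between WT livers for each of the 5 genes tested, as it was for 61.9% of all genes. Over all genes the median SD was 0.27 in WT and 0.35 in ChLO. ChLO 1 and ChLO 2 both lay above every WT array for 4 of the 5 (Sox9, Sox4, Cd24a and Prom1), a pattern shown by 23.3% of all genes. For 2 of these, Sox9 and Prom1, ChLO 3 also lay below every WT array, which was so for 5.12% of all genes. Without ChLO 3, 4 of 5 had an unadjusted p under 0.05 with a higher signal in ChLO, against 12.4% of all genes, Epcam being the exception. Since ChLO 3 was set apart on these values, the count adds no support of its own. Array weights, which let limma count noisy arrays for less, gave Sox4 a difference of 2.46 (adjusted p = 0.0482), 1 of 5 against 0.111% of all genes called higher with these weights. The weights were estimated from these same values, so this call is no separate support either.

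**Figure D4:**
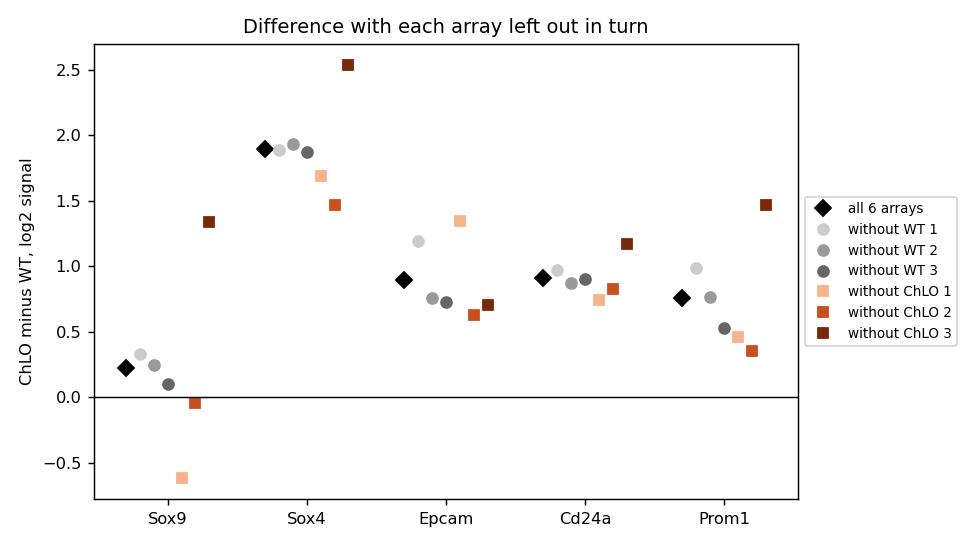
Difference between ChLO and WT in log2 signal (vertical axis) for the 5 genes tested (horizontal axis), with all 6 arrays (black diamonds) and with each WT array (grey circles) or ChLO array (orange to brown squares) left out in turn. Leaving out ChLO 3 gives the highest value for Sox9, Sox4, Cd24a and Prom1, and Sox9 falls below 0 without ChLO 1 or ChLO 2.

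Other genes of the bile duct epithelium did not move together with one sign. Of 30 listed genes 21 were tested, and 15 had higher and 6 lower means in ChLO, with 0 past the threshold and a median difference of 0.21 against 0.06 over all genes. With spike-in scaling the split was 19 and 2, with a median of 0.46 against 0.31. The keratins that define duct cells, Krt19 and Krt7, lay near the filter level. Krt19 read 5.68, 5.61 and 5.21 in WT and 6.15, 6.30 and 5.91 in ChLO, a difference of 0.62 (SE 0.45, limma adjusted p = 0.685) without overlap. Krt7 read 5.65, 6.75 and 4.59 in WT and 5.90, 5.69 and 5.04 in ChLO, with a difference of -0.12 (SE 0.67).

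Of the genes of duct secretion and cilia, Aqp1, Slc4a2 and Pkhd1 lay within the spread. Aqp1, a water channel of duct cells and vessels, differed by 0.03 (SE 0.19, 95% interval -0.42 to 0.48) and Slc4a2, the chloride and bicarbonate exchanger of duct cells, by 0.22 (SE 0.25). Pkhd1, which encodes the ciliary protein fibrocystin, differed by -0.08 (SE 0.40). Sctr, the secretin receptor, was below the filter level and read 4.96, 4.23 and 3.06 in WT and 5.89, 5.92 and 4.95 in ChLO. Its means differed by 1.51, with ChLO 1 and ChLO 2 above every WT array and ChLO 3 within the WT range, and it was not tested.

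The greatest differences in the list, none past the threshold, were in Cldn4 and Krt23. Cldn4, a claudin of duct epithelium, read 5.33, 6.10 and 4.71 in WT and 9.95, 8.09 and 6.33 in ChLO, a difference of 2.74 (SE 0.85, limma adjusted p = 0.455) on a WT mean under the filter level. Cldn7 read 3.48, 6.06 and 6.21 in WT and 6.40, 6.81 and 4.77 in ChLO. Of the 21, 4 had an unadjusted p under 0.05, all higher in ChLO, against 5.46% of all genes tested in that direction. They were Cldn4 and 3 named after their values were seen: Krt23, a keratin, by 2.26 (SE 0.41, adjusted p = 0.185), Wwtr1, the YAP partner TAZ, by 0.73 (SE 0.15, adjusted p = 0.249), and Elf3, an epithelial transcription factor, by 0.96 (SE 0.38, adjusted p = 0.534). Wwtr1 read 9.86, 9.89 and 9.88 in WT and 10.59, 10.68 and 10.53 in ChLO, and Krt23 read 7.83, 7.09 and 6.27 against 9.71, 8.99 and 9.26. In both, ChLO 3 was close to the other two ChLO arrays, unlike in Sox9, Sox4 or Prom1.

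Of 17 progenitor and fetal liver genes 10 were tested, 7 with higher and 3 with lower means in ChLO (9 and 1 with spike-in scaling) and 0 past the threshold. The median difference was 0.49 against 0.06 over all genes, of which 56.5% had a higher mean in ChLO. Afp, the fetal plasma protein that hepatocytes silence after birth, read 7.56, 6.80 and 7.44 in WT and 10.55, 8.96 and 8.14 in ChLO. All ChLO arrays were above WT, with a difference of 1.95 (SE 0.57, limma adjusted p = 0.449). Tnfrsf12a, the receptor Fn14 that drives growth of duct-like cells, read 10.63, 7.80 and 7.79 in WT and 12.49, 10.64 and 3.50 in ChLO. ChLO 3 was the lowest array by far there, as for Sox9, and the difference was 0.14 (SE 2.07). Dlk1, a fetal surface protein, differed by 0.42 (SE 0.44). Of the 10, 2 had an unadjusted p under 0.05, both higher in ChLO, against 5.46% of all genes in that direction. They were Afp and Kit, a receptor of stem cell factor named after its values were seen, and Kit differed by 0.59 (SE 0.22, limma adjusted p = 0.502).

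Notch signalling directs precursor cells to the duct fate, upstream of Sox9. Of 18 genes of the pathway 16 were tested, 14 with higher and 2 with lower means (15 and 1 with spike-in scaling), and 0 passed. The median difference was 0.37 against 0.06 over all genes, of which 56.5% had a higher mean in ChLO. The receptor Notch2 differed by 0.13 (SE 0.20), its ligand Jag1 by 0.40 (SE 0.41) and the target Hes1 by 0.72 (SE 0.38, limma adjusted p = 0.610). Hes1 read 8.53, 7.24 and 8.17 in WT and 9.19, 8.55 and 8.34 in ChLO, so ChLO 3 lay within the WT range. At an unadjusted p under 0.05, 1 of the 16 was higher in ChLO against 5.46% of all genes, and 1 was lower against 3.5%. They were Nrarp, a feedback target, and Hes6, a relative of Hes1, both named after their values were seen. Nrarp differed by 0.97 (SE 0.28, adjusted p = 0.451) and Hes6 by -1.14 (SE 0.23, adjusted p = 0.228).

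Receptors that bind osteopontin or CD24 were tested for 11 of 11 listed genes. Of these, 8 had higher and 3 lower means (9 and 2 with spike-in scaling), with 0 past the threshold. The median difference was 0.44 against 0.06 over all genes, of which 56.5% had a higher mean in ChLO. Cd44, a receptor for hyaluronan and osteopontin, read 9.17, 8.59 and 8.54 in WT and 11.18, 10.40 and 8.64 in ChLO. ChLO 1 and ChLO 2 were above every WT array and ChLO 3 was among the WT arrays, with a difference of 1.30 (SE 0.58, limma adjusted p = 0.564). Itgav, the alpha-v integrin chain, differed by 0.48 (SE 0.34). Of the 11, 2 integrin chains had an unadjusted p under 0.05 and were named after these were seen, 1 higher in ChLO against 5.46% of all genes and 1 lower against 3.5%. Itga4 read 6.77, 7.04 and 5.97 in WT and 8.53, 7.96 and 7.16 in ChLO, a difference of 1.29 (SE 0.45, adjusted p = 0.491). Itga9 read 8.21, 8.30 and 8.45 in WT and 7.92, 7.86 and 7.11 in ChLO, a difference of -0.69 (SE 0.28, adjusted p = 0.548). Itga4 was higher in ChLO without overlap between the groups, as were 9.04% of all genes tested. Itga9 was lower without overlap, and the share of all genes in that direction was not counted.

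Markers of stroma, neutrophils and macrophages also had their highest medians in ChLO 1 and ChLO 2. Set against the WT mean, the 5 genes tested had a median of 1.36, 1.43 and 0.40 in ChLO 1, 2 and 3. Over 14 stellate cell and mesenchyme markers it was 1.24, 1.28 and -0.05, and their summed linear signal was 10289 to 15558 in WT and 12365 to 31398 in ChLO. Over the 4 neutrophil markers tested of 8 it was 2.17, 1.90 and -0.16. The sums over the 6 with a named probe set, dim ones included, were 296 to 591 in WT and 386 to 1145 in ChLO. Of the 4 tested, 3 had a higher and 1 a lower mean in ChLO. Among the higher ones Csf3r, named after its values were seen, had a WT mean of 5.12, under the filter level, against 7.30 in ChLO. Over 16 Kupffer cell and macrophage markers of 18 the median was 0.33, 0.74 and -0.14. The sums over the 17 with a named probe set were 21258 to 22708 in WT and 19255 to 35005 in ChLO. Clec4f, a Kupffer cell lectin, differed by -0.14 (SE 0.27), Cd68, a lysosomal protein of macrophages, by 1.13 (SE 0.57), Gpnmb by 2.96 (SE 1.97) and Trem2 by -1.59 (SE 0.62), and none of these passed. The WT mean of Gpnmb, 4.49, and the ChLO mean of Trem2, 4.82, were under the filter level. Hepatocyte markers, 15 of 16 tested, went the other way at -0.53, -0.36 and -0.17, with 1 higher and 14 lower means (4 and 11 with spike-in scaling) and sums of 412640 to 485086 in WT and 329506 to 414975 in ChLO. Hnf4a, the main hepatocyte transcription factor, read 13.36, 13.31 and 13.71 in WT and 12.93, 13.10 and 13.27 in ChLO.

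Markers of red cells, lymphocytes, mesothelium, pancreas and gut had negative medians in ChLO 1 and ChLO 2, some of them within the range of the WT medians. The sums again include listed genes with a named probe set below the filter level, which the medians leave out. Over the 3 erythroid markers tested of 9, whose cells carry CD24, the medians were -1.05, -0.23 and -0.12 in ChLO 1, 2 and 3. In WT 1, 2 and 3 they were -0.52, -0.07 and 0.59. The sums over 6 genes were 1382 to 2873 in WT and 720 to 2281 in ChLO. Over the 3 lymphocyte markers tested of 12 the medians were -0.19, -0.48 and 0.48, against -0.15, 0.36 and -0.39 in WT. The sums over 8 genes were 350 to 626 in WT and 419 to 663 in ChLO. Over the 3 mesothelial markers tested of 7 the medians were -0.18, -0.40 and 0.38, against 0.13, 0.03 and -0.16 in WT. The sums over 7 genes were 436 to 605 in WT and 256 to 570 in ChLO, and Msln, Upk3b and Wt1 were below the filter level. Over the 6 pancreas and gut markers tested of 12 the medians were -0.81, -0.40 and 0.56, against -0.36, 0.13 and 0.31 in WT. The sums over 9 genes were 2536 to 4672 in WT and 1548 to 7462 in ChLO. Endothelial markers, all 12 tested, had medians of 0.20, 0.60 and 0.03 and sums of 10069 to 12604 in WT and 11446 to 15095 in ChLO. As a check of RNA quality, the 3′ control probe set of Actb exceeded the 5′ one by 1.13 to 1.38 log2 units in WT, by 0.84 in ChLO 1, 1.03 in ChLO 2 and 1.46 in ChLO 3. The part of these cell markers and of RNA quality in the values of the list was not tested.

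**Figure D5:**
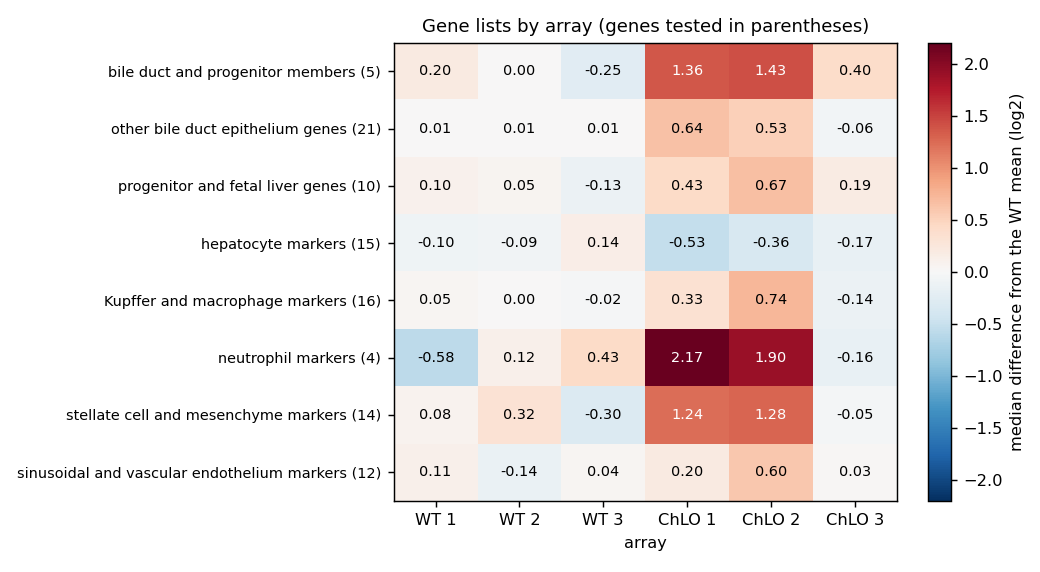
Median log2 difference from the WT mean (colour and printed value) of the bile duct and progenitor genes and of 7 other lists (rows, with the number of genes tested) on each array (columns). The first row and the stellate and neutrophil rows are highest in ChLO 1 and ChLO 2, and the hepatocyte row is lowest there.

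The genes whose signals over the 6 arrays were most like those of the list were found by Pearson correlation over the 12593 other genes tested, as a description with 6 points each. Nearest to Sox9 were Stard3, Cald1 and Kat2a (r of 0.998, 0.996 and 0.993), nearest to Sox4 were Cybb, Hpse and Sptbn1 (0.996, 0.995 and 0.994), and nearest to Cd24a were Ctcf, Dck and Pld2 (0.999, 0.997 and 0.997). Prom1 was most like Myl9, Casp4 and BC052040 (0.994, 0.992 and 0.991), and Epcam most like Rassf4, Vnn1 and Adgrl2 (0.991, 0.990 and 0.978). The sizes of these changes differed. Stard3 read 9.40, 9.36 and 9.34 in WT and 9.69, 9.48 and 9.07 in ChLO, a much narrower range than that of Sox9, and Cybb, a subunit of the phagocyte oxidase, differed by 0.81 (SE 0.28).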

How the data were processed

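Liver RNA of 6 mice was hybridized to Affymetrix 3′ arrays, 1 array per mouse. The authors deposited log2 signals from MAS5, per the submitters' processing notes, with version and parameters not given in the sources used here. The log2 scale was worked out from the deposited values, whose linear trimmed mean (2% from each end) was 500 on all 6 arrays. Such scaling hides a shift shared by most transcripts, and MAS5 leaves dim probe sets variable. Detection calls and a genome build were not used here.

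Probe sets were named by the platform's annotation. Of 45101, 64 controls were left out, 34945 had 1 symbol, 932 several and 9160 none. Probe sets with a mean below the 40th percentile (log2 5.50) were left out, and each gene was taken as its probe set with the highest mean. The 12598 genes were tested with limma 3.58.1 in R 4.3.3 (lmFit, eBayes with trend, no block), with Benjamini-Hochberg adjustment over all genes tested and a threshold of 0.05. The 27022 probe sets past the filter were fitted the same way. SE is limma's moderated standard error. Exact permutation tests of 3 against 3 arrays cannot go below p = 0.10, so none are given.

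The 8 genes, the other 14 lists and the tests were chosen with earlier results of these data known. Named are the 8 genes, Mlxipl, 24 genes of the other lists fixed whatever their values (any of these not named in the text is not reported here), and the 3 genes most correlated with each tested gene; others are marked in the text. Simulated data had 12598 genes with independent normal values and, for each gene, 1 SD pooled from both groups and used in both. In them a true difference of 1 log2 unit was called for 21.9% of genes, of 2 units for 63.3%, of 3 units for 80.2% and of 4 units for 88.7%, and 4.68% of calls were false. The greater spread of the ChLO arrays and shifts shared by many genes of an array were not simulated, so these shares may not hold for the real arrays. Alternatives were other scalings, filters, a floor at log2 5, variance models, summaries of probe sets, the replicate block and leaving out each array.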

Additional observations from a re-analysis of the deposited data

How the results depend on the processing

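Sox4, Cd24a, Epcam and Prom1 stayed higher in ChLO in every alternative that gave a value, from 1.47 to 2.58, 0.72 to 1.17, 0.63 to 1.35 and 0.35 to 1.47, with limma adjusted p from 0.0120 to 0.869, 0.0382 to 0.869, 0.0941 to 0.880 and 0.113 to 0.939. Sox9 ran from -0.62 to 1.34 (adjusted p from 0.144 to 0.999), both ends from leaving out an array. Its 1424950_at probe set became 0.040 with spike-in scaling and ran from -0.86 to 0.69 when an array was left out, and Cd24a 1416034_at ran from -0.13 to 0.88. Sox4 passed with array weights (2.46) and without ChLO 3 (2.54). Both the weights and the choice of ChLO 3 came from these same values, so neither is separate support. Weights fitted by REML, added after the data were seen because they are limma's default and stopped short of convergence, gave Sox4 2.58 and Cd24a 1.06, both past the threshold, so 2 genes of the list passed, against 1 with the planned weights, 0 to 1 when an array was left out and 0 otherwise. Over all genes the count of 0 (1129 at an unadjusted p under 0.05) became 3 without a filter, 6 with a floor, 48 with array weights (568 by REML), 3 without _x_at and _s_at probe sets, 8 over all probe sets, and 0 to 302 when an array was left out, 302 without ChLO 3. Epcam could not be fitted without _x_at and _s_at probe sets, and Sox9, Epcam and Prom1 were below the 60th percentile filter. Deviations of same-numbered arrays from their group means correlated at 0.304, -0.166 and 0.0632, without a common sign. Arrays of different numbers were not compared in this way, so a shared deviation was not settled, and the replicate numbers were not taken as pairs. With the replicate number as a block 1 gene passed and 0 of the list, so no call of the list changed. With that block 1332 genes had an unadjusted limma p under 0.05, against 1129 without it. Cftr, Muc1 and the other dim probe sets are limited by their signal, and 3 arrays per group limit the precision of all values.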
